A study of Homo sapiens with 4 samples.

Results

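The interleukin system of the array comprised 51 genes whose platform symbol starts with IL and a number, out of 4604 named genes. They carried 160 probes. By role, 21 genes encode ligands, 28 encode receptor chains or their accessory proteins, and the remaining 2, IL1RN and IL36RN, encode antagonists that occupy a receptor without activating it. A value on all 4 arrays, required for testing, was found for 42 of the 51 (17 ligands, 24 receptor chains and IL1RN), against 3675 of 4604 genes in the series.

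The series used OCI-Ly3, an established human lymphoma line (diffuse large B-cell lymphoma, activated B-cell type). In it doxycycline (20 ng/ml) induces a short hairpin RNA that targets IKKa, a kinase whose gene is CHUK. Each two-colour array set induced cells (Cy5) against cells without doxycycline (Cy3), with no dye swap. On 2 arrays neither channel had inhibitor, and doxycycline had been given for 2 or 3 days (the 2-day and 3-day arrays). The remaining 2 arrays carried MLN120b, an inhibitor of IKKb, at 12.5 uM in both channels, for 3 h after 2 days of doxycycline and for 24 h within 3 days of doxycycline (the 3 h and 24 h inhibitor arrays). All arrays therefore compare cells of one line that carry the hairpin construct, with clonality not given in the sources used here.

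Each value below is a log2 ratio of induced over uninduced cells, averaged over the probes of a gene that had a value on that array. Neither log base nor sign convention is stated in the file. This direction is the likely one, from the dyes and from CHUK. Turned round, every higher value would be lower. CHUK stood at -0.59 and -0.87 on the 2-day and 3-day arrays and at -1.30 and -1.01 on the 3 h and 24 h inhibitor arrays. A ratio gives no level of expression, so the cell type could not be checked against its markers by level. Of 10 B-cell markers, 9 had a value on all 4 arrays, as had 5 of 7 T-cell and 4 of 7 myeloid markers, and limma called none of them at an adjusted p under 0.05 in any comparison. The medians of these lists with inhibitor were -0.12, 0.13 and 0.14.

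Interleukins are secreted proteins by which leukocytes instruct each other, and each acts through a receptor built from private and shared chains. IL2RG, the common gamma chain, is shared by the receptors for IL2, IL4, IL7, IL9, IL15 and IL21, while IL6ST (gp130) is shared by the IL6 family. Most of these receptors signal through JAK kinases to STAT factors, and those of the IL1 family signal through MYD88 and IRAK kinases to NF-kB. Lymphomas of the activated B-cell type are known for NF-kB-driven secretion of IL6 and IL10, which act back on the same cells through STAT3.

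As a set, these genes spread about as widely as the rest of the array. The median absolute log2 ratio of the 42 was 0.10 on the 2-day, 0.18 on the 3-day, 0.15 on the 3 h inhibitor and 0.26 on the 24 h inhibitor array, beside 0.10, 0.18, 0.16 and 0.26 over all 3675 genes. Their median lay slightly above 0: 0.02, 0.08, 0.04 and 0.14 on these arrays, beside -0.01, -0.03, -0.02 and -0.01 for all genes. Most members therefore lay close to 0, and a few stood apart.

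Tests by limma, two-sided, of the group means were fitted on all 3675 genes, and a gene was called where its Benjamini-Hochberg adjusted p was under 0.05. Without inhibitor, limma called 0 of 42 members (background 0% of all genes), and 3 members had an unadjusted p under 0.05 (7.14%, beside 9.47% of all genes). With inhibitor it called 2 of 42 (4.76%, beside 3.51% of all genes): IL23A was higher (1 of 42, beside 1.28% of all genes) and IL2RG lower (1 of 42, beside 2.23%). The same pair were the members beyond 1.5-fold on both inhibitor arrays (0.925% of all genes higher and 2.15% lower). At an unadjusted p under 0.05 there were 11 members with inhibitor (26.2%, beside 27.1%). For the difference between the groups it called 0 of 42 (background 0%), with 3 at an unadjusted p under 0.05 (7.14%, beside 4.6%). These shares lie near those of all genes. The arrays of each group differ in time, and the p-values take in that difference as error. Nothing in the labels says that the arrays came from separate cultures.

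**Figure D1:**
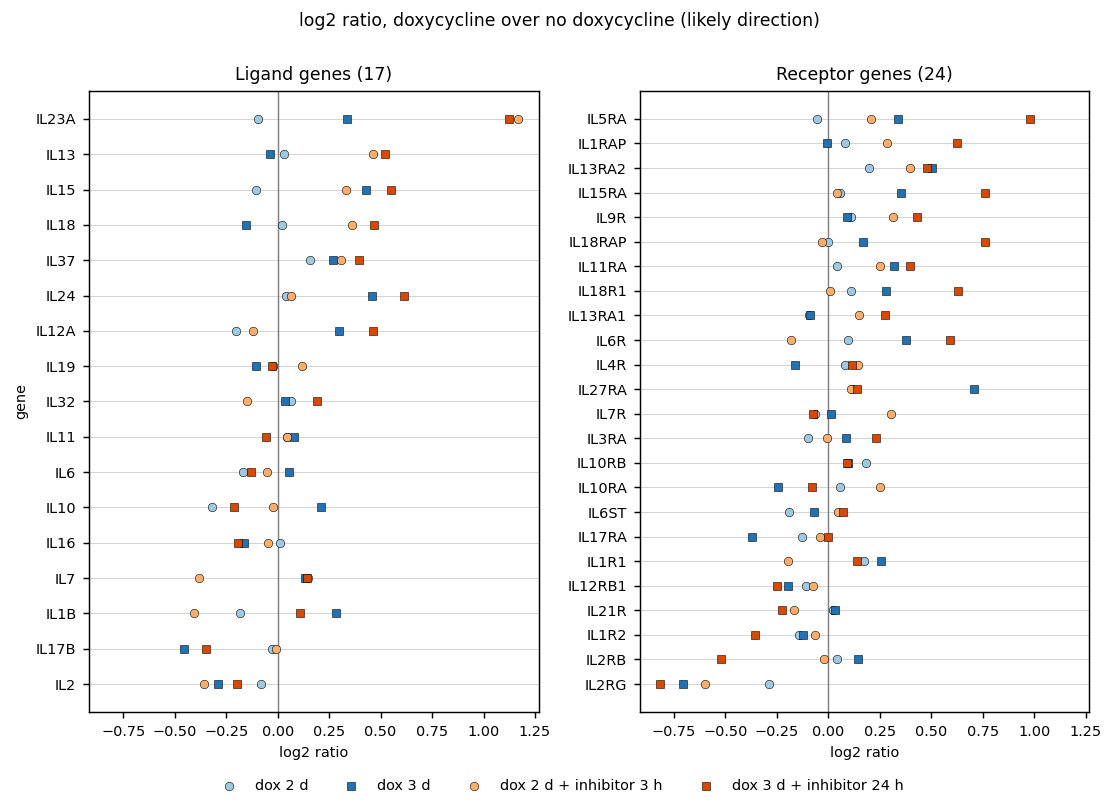
Log2 ratio (x axis) of each ligand gene (left) and receptor gene (right) on the 4 arrays, ordered by the mean of the inhibitor arrays. Circles are arrays with 2 and squares with 3 days of doxycycline, in blue without and in orange with inhibitor. IL23A lies at 1.17 and 1.12 on the inhibitor arrays, apart from every other ligand, and IL2RG is below 0 on all 4 arrays.

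Among the ligands, IL23A encodes p19, the subunit that pairs with IL12B to form interleukin 23. It stood at -0.09 on the 2-day and 0.34 on the 3-day array, and at 1.17 on the 3 h and 1.12 on the 24 h inhibitor array. Both inhibitor arrays lay above both arrays without inhibitor, and they differed from each other by less than the arrays without inhibitor did. Its mean was 0.12 ± 0.31 (SD, n = 2) without inhibitor and 1.15 ± 0.03 with it, 2.21-fold in the likely direction (limma adjusted p = 0.0172). Of all 3675 genes it ranked 3671 from the lowest on the 3 h inhibitor array and 3624 on the 24 h array, and without inhibitor 3387 on the 3-day and 1110 on the 2-day array.

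The difference of the IL23A means was 1.02 (SE 0.20, 95% interval 0.56 to 1.49), the fourth smallest p of all genes for this comparison, and it did not pass (limma adjusted p = 0.949). IL23A rested on 1 probe on 3 of the arrays, since the other of its 2 probes had a value on the 2-day array alone (-0.10, beside -0.09 for the first). Without either array of doxycycline alone, the mean with inhibitor was the same and its adjusted p became 0.0514. Without either inhibitor array it was called, and the difference was then called as well: limma adjusted p = 0.0026 without the 3 h array, when 3.86% of all differences were called, and 0.00489 without the 24 h array (0.517%).

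The promoter of IL23A is printed because IL23A had the largest mean of all members and its upstream region holds a match to the NF-kB consensus, shown in capitals. The 250 bases before the RefSeq start site (GRCh38.p14, chr12:56338634-56338883, plus strand) read, 5′ to 3′:
IL23A: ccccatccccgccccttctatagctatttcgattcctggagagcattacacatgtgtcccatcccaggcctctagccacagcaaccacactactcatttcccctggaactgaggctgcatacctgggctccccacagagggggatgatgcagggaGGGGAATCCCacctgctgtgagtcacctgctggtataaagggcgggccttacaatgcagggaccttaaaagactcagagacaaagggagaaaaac
The match, GGGGAATCCC, lies 95 to 86 bases before the start. It is a match of letters and no measurement of binding.

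The other members that encode chains of interleukins 12 and 23 or of their receptors gave little. IL12B, the p40 subunit shared by interleukins 12 and 23, had values on 3 arrays, -0.54, -0.17 and, on the 24 h inhibitor array, -0.03. IL12A, the p35 subunit of interleukin 12, stood at -0.20 at 2 and 0.30 at 3 days without inhibitor, and at -0.12 on the 3 h and 0.46 on the 24 h inhibitor array. Its pair of probes disagreed on the 3-day array, at -0.21 and 0.81, and the first of them was higher on both inhibitor arrays (0.03 and 0.34) than on both others. Of the receptor chains, IL12RB1, shared by the receptors for interleukins 12 and 23, averaged slightly below 0 on all 4 arrays (-0.11, -0.20, -0.07 and -0.25), and IL12RB2 had 1 value, -0.07 on the 2-day array. The IL12RB1 average joined probes that disagreed. The probe measured throughout stood at -0.26, -0.48, -0.07 and -0.59. Its other probe stood at 0.04, 0.085 and 0.085, with no value on the 3 h inhibitor array.

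IL6, the best known autocrine cytokine of this lymphoma type, averaged -0.17 and 0.06 without inhibitor and -0.05 and -0.13 with it. These averages hid opposed probes. One of its 5 probes went from -0.25 and 0.08 without inhibitor to -1.21 and -1.30 with it, while the other 4 had values between -0.11 and 0.55 on the inhibitor arrays. Tested as a single probe, that probe was called lower with inhibitor (limma adjusted p = 0.00119 over 6796 probes), and its difference of -1.18 was not called (0.604). With the median over probes in place of the mean, IL6 with inhibitor turned from -0.09 to 0.25 (adjusted p of 0.65 and 0.292). No direction can therefore be given for IL6 from these probes.

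The IL6 promoter is shown because IL6 is a textbook NF-kB target and its match, again in capitals, can be set beside that of IL23A (chr7:22726950-22727199, GRCh38.p14, plus strand):
IL6: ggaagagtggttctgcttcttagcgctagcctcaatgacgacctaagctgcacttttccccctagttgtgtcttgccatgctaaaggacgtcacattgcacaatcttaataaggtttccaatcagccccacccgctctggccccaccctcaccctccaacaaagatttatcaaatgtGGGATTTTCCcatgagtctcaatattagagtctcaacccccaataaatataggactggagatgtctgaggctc
The match GGGATTTTCC lies 73 to 64 bases before the start, somewhat nearer than that of IL23A. Of the other members, IL27RA holds GGGACTTTCC 68 to 59 bases before its start and IL12A holds GGGGTGTCCC 44 to 35 bases before it.

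IL10, which restrains inflammatory cells and supports B cells, averaged -0.32 and 0.21 without inhibitor and -0.02 and -0.21 with it. Of its 4 probes, 1 had a value on all 4 arrays, and that probe stayed between -0.09 and 0.05. The group means of IL10, -0.05 and -0.12, differed by -0.06 (95% interval -0.58 to 0.45).

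Other ligands lay higher with inhibitor without passing. IL13, a cytokine of type 2 immunity, stood at 0.03 and -0.04 without and at 0.46 and 0.52 with inhibitor. IL18, an inflammasome-processed cytokine of the IL1 family, stood at 0.02 and -0.16 without and at 0.36 and 0.47 with it. For both, the groups of arrays did not overlap, as was so in this direction for 10 of 42 members (23.8%) and 18.3% of all genes. The differences were 0.50 for IL13 (95% interval 0.12 to 0.87) and 0.48 for IL18 (0.09 to 0.88), with an adjusted p of 0.998 for each. Both IL13 probes were higher with inhibitor, and IL18 had 1 probe.

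IL15, a growth factor for lymphocytes that uses the common gamma chain, stood at -0.10 and 0.43 without and 0.33 and 0.55 with inhibitor, so its 3-day array lay between the inhibitor arrays. Of its 6 probes, 1 had a value on every array. IL24, of the IL10 family, was near 0 at 2 days on both kinds of array (0.04 without and 0.06 with inhibitor) and higher at 3 days (0.46 and 0.61).

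Few ligands were low. IL2, the T-cell growth factor, averaged below 0 throughout, at -0.08 and -0.29 without and -0.36 and -0.20 with inhibitor. Only 1 of its 2 probes was below 0 on every array (-0.23, -0.605, -0.37 and -0.48). The other was below 0 on the 3 h inhibitor array alone (0.07, 0.02, -0.35 and 0.09). IL17B, of the IL17 family, was near 0 at 2 days (-0.03 and -0.01) and lower at 3 days (-0.45 and -0.35), on 1 probe. IL7, a survival factor for lymphocytes, averaged 0.15, 0.13, -0.38 and 0.14, and its probes diverged. On the inhibitor arrays 1 of the 4 stood at -0.68 and -0.67 (limma adjusted p = 0.0133 as a single probe). Without inhibitor that probe stood at -0.05 and -0.14, and its difference of -0.58 was not called (limma adjusted p = 0.83).

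Among the receptors, IL2RG was the lowest member in both groups. It stood at -0.29 on the 2-day, -0.71 on the 3-day, -0.60 on the 3 h inhibitor and -0.82 on the 24 h inhibitor array. Every array lay below 0, and the groups of arrays overlapped. Its mean was -0.50 ± 0.29 (SD, n = 2) without inhibitor (limma adjusted p = 0.367) and -0.71 ± 0.15 with it, 1.64-fold lower (limma adjusted p = 0.0483). The difference was -0.21 (95% interval -0.69 to 0.27, adjusted p = 0.998), so IL2RG was not shown to respond differently with inhibitor.

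Of the 5 IL2RG probes, 4 were below 0 on all 4 arrays and all 5 were below 0 on both inhibitor arrays. With inhibitor their means ran from -1.04 to -0.28, and 3 of them were called as single probes (limma adjusted p from 0.00363 to 0.015). The gene's call with inhibitor lay close to the threshold. It was lost with median centring (limma adjusted p = 0.0525, 2.8% of all genes called), with scaling to equal spread (0.0526, 1.44%), without the 24 h inhibitor array (mean -0.60, 0.0542, 4.54%) and without either array of doxycycline alone (0.108, 0.299%). Without inhibitor, scaling turned it into a call (mean -0.56, limma adjusted p = 0.044, 3.05% of all genes called), as did leaving out either inhibitor array (mean -0.50, 0.0128, 5.44%).

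The upstream region of IL2RG is printed for contrast with IL23A, as the other called member (chrX:71111578-71111827, GRCh38.p14, minus strand):
IL2RG: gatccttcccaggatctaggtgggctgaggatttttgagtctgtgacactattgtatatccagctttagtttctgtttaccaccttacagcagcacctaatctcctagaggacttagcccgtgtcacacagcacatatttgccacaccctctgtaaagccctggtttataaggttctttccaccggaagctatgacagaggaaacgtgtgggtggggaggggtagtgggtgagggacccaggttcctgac
No capitals appear, since these 250 bases hold no match to the NF-kB consensus, which says nothing about the factor elsewhere.

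The chains that pair with IL2RG lay on both sides of 0 on the inhibitor arrays. IL4R, the chain for IL4 and IL13, averaged 0.08, -0.16, 0.15 and 0.11, over different probes on different arrays. Its only probe measured throughout stood at 0.08, -0.16, 0.09 and -0.16. IL7R averaged -0.07, 0.01, 0.30 and -0.07, and its only probe measured throughout stood at 0.11, -0.14, 0.12 and -0.07. Its probes at 0.60 and 0.19 on the 3 h inhibitor array had no value on the 24 h inhibitor array. IL9R stood at 0.11, 0.09, 0.32 and 0.43, with a different probe behind each of its inhibitor values. IL15RA, which presents IL15, was above 0 on all arrays (0.06, 0.35, 0.04 and 0.76), and 3 of its 4 probes went from -0.01, 0.31 and 0.07 on the 2-day array to 0.66, 0.88 and 0.51 on the 24 h inhibitor array. The fourth had -0.96 on the 3 h and 1.00 on the 24 h inhibitor array. IL2RA had no value on the 3 h inhibitor array and averaged 0.03, 0.25 and 0.62 on the others, over different probes. The only probe measured on each of those stood at -0.03, 0.05 and 1.06. A probe at 0.82 on the 3-day array had no value on any other.

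IL2RB, the signalling chain for IL2 and IL15, stood at 0.04 and 0.14 without and -0.02 and -0.52 with inhibitor. The low 24 h value came mostly from 1 of 2 probes measured there (-1.06, beside 0.02). The difference, -0.36 (95% interval -0.86 to 0.13), was the lowest of the 42. IL21R, through which IL21 drives B-cell differentiation, stood at 0.02 and 0.03 without and -0.17 and -0.23 with inhibitor. Tested as a single probe, 1 of its 6 was called lower with inhibitor (-0.64 and -0.73, limma adjusted p = 0.0131). The difference of that probe, -0.69, was not called (limma adjusted p = 0.738), and another probe stayed at 0.11 and 0.20. The 10 tested genes of the common gamma family had a median of 0.06 without and 0.00 with inhibitor, 5 above and 5 below 0 in the latter.

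The highest receptor with inhibitor was IL5RA, the private chain for IL5, at -0.06 and 0.34 without and 0.21 and 0.98 with inhibitor. Its mean with inhibitor, 0.59 ± 0.54 (SD, n = 2, limma adjusted p = 0.119), rested mostly on the 24 h array, where all 3 probes lay between 0.77 and 1.14. Left with the 24 h array alone (0.98), the inhibitor group has no spread of its own, and the difference of IL5RA was then 0.84. IL1RAP, the accessory chain of the IL1 receptor family, stood at 0.08 and -0.01 without and 0.28 and 0.62 with inhibitor, on 1 probe, and its difference was 0.42 (95% interval -0.02 to 0.85).

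IL13RA2, a receptor for IL13 often described as a decoy, was above 0 on all 4 arrays (0.20, 0.50, 0.40 and 0.48). IL27RA, the private chain of the IL27 receptor, had the largest mean without inhibitor, 0.41 ± 0.42, from 0.12 and 0.70. Its higher value came from a probe at 1.13 on the 3-day array that had no value on the inhibitor arrays, while the probe measured throughout stayed between 0.11 and 0.28. IL6R, the private chain for IL6, stood at 0.09, 0.38, -0.18 and 0.59, and the average of its partner IL6ST stayed between -0.19 and 0.07. That average hid opposed probes, which ran from -0.78 to 0.69 on the 3 h inhibitor array. IL1R1, the signalling receptor for IL1, stood at 0.17 and 0.25 without and -0.20 and 0.14 with inhibitor. A probe at 0.26 and 0.70 without inhibitor had no value on the inhibitor arrays. On the probes measured on all 4 arrays, the IL1R1 mean without inhibitor was 0.08 in place of 0.21. The IL1 decoy IL1R2 was below 0 on all arrays, from -0.36 to -0.06.

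IL17RA, the shared chain for IL17 cytokines, averaged -0.13, -0.37, -0.04 and 0.00. One of its 5 probes was low on every array (-0.70, -0.95, -0.54 and -0.96). As a single probe it was called in both groups (limma adjusted p of 0.0427 without and 0.0144 with inhibitor), and 3 of the other probes lay above 0 on both inhibitor arrays, at up to 0.34. Tested as single probes with inhibitor, 11 of 40 members had at least 1 called probe (27.5%, beside 18.2% of all 3589 genes). By probe, 14 of 88 were called (15.9%), beside 11.7% of all probes (4.03% higher and 7.65% lower). Without inhibitor 2 of 40 members had a called probe (5%, beside 1.67% of all genes), and 3 of 88 probes were called (3.41%, beside 1.03%). Of the 23 members with 2 or more probes measured on all arrays, 10 had probe means of both signs with inhibitor and 15 without.

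Ligands and receptors, set side by side, took similar positions. Without inhibitor the median of the group means was 0.05 for ligands (9 of 17 above 0) and 0.06 for receptors (14 of 24), beside -0.01 for all genes (47.1% above 0). With inhibitor it was 0.02 for ligands (9 of 17 above 0) and 0.12 for receptors (17 of 24), beside 0.00 for all genes (50.3% above 0). The most extreme ligand, IL23A, was higher and the most extreme receptor, IL2RG, was lower. Each role held 1 called gene.

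**Figure D2:**
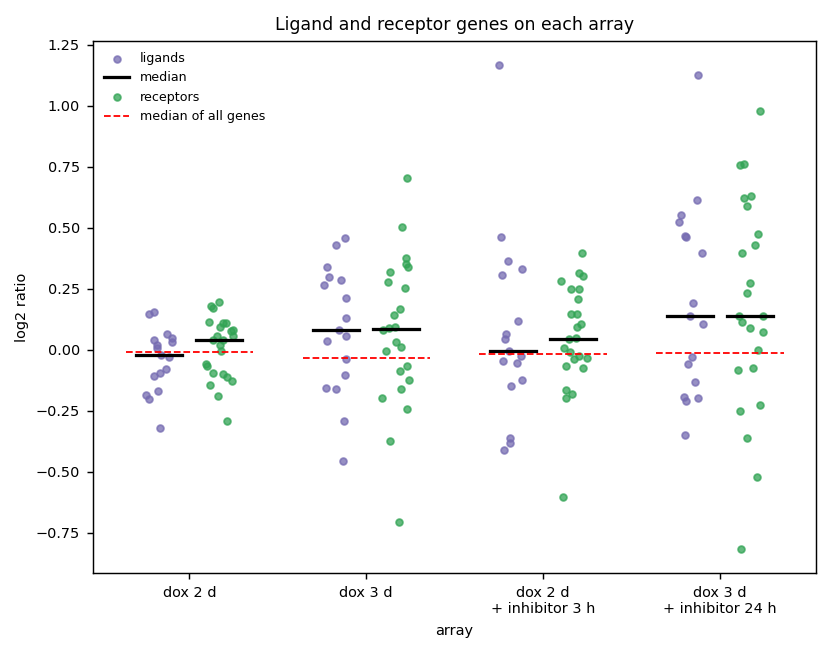
Log2 ratio (y axis) of each of 17 ligand and 24 receptor genes on each array (x axis), with the median of each role as a black line and the median of all 3675 genes as a dashed red line. The role medians lie between -0.02 and 0.14, and the points spread more widely at 3 days.

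The day of doxycycline separated members, as it did genes across the whole array. On both 3-day arrays 13 of 42 members lay above both 2-day arrays (31%, beside 21.3% of all genes) and 7 lay below (16.7%, beside 30.6%). The former included IL12A, IL15RA, IL24, IL5RA and IL6R and the latter IL2RG, IL16, IL17B and IL10RA. The inhibitor time runs with the day, since the 3-day inhibitor array had 24 h of inhibitor, so day and inhibitor time cannot be told apart on those arrays. With the day as a block, 13 members were called with inhibitor, 12 of them higher, when 933 of all genes (25.4%) were, 12.5% higher and 12.8% lower. At an adjusted p under 0.10, 7 members were called with inhibitor, beside 14.6% of all genes.

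**Figure D3:**
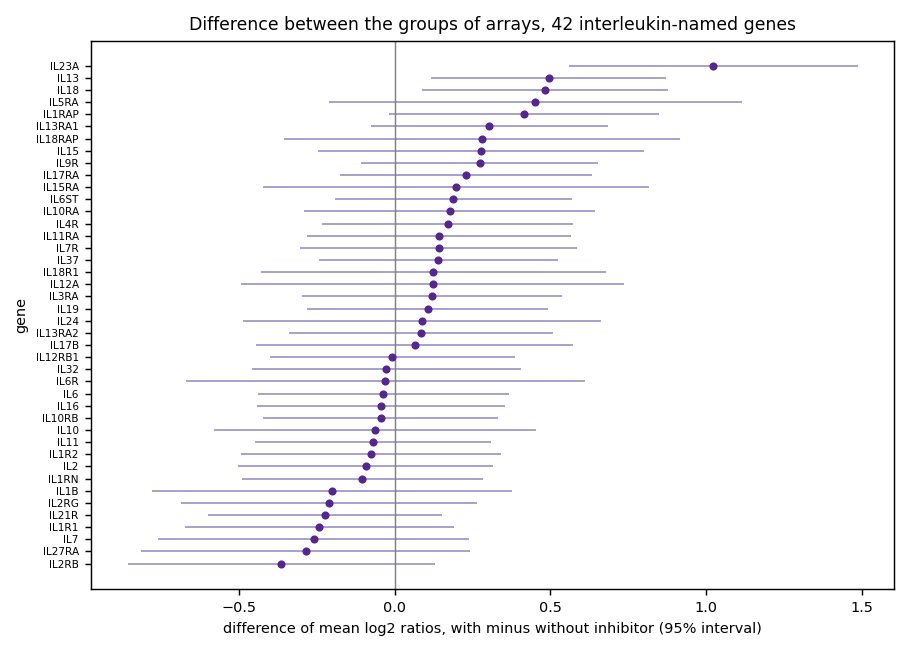
Difference of the mean log2 ratios, with minus without inhibitor (x axis), for the 42 tested genes, with 95% intervals from the limma fit. IL23A lies at 1.02 with an interval from 0.56 to 1.49, the intervals of IL13 and IL18 also lie above 0, and no difference passed adjustment over all genes.

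Downstream of the receptors, 32 of 47 listed cytokine signalling genes had values on all 4 arrays, and their median was -0.06 without and -0.07 with inhibitor. With inhibitor 1 of the 32 was called lower, STAT3, the main transcription factor for IL6 and IL10 signals. None was called higher, and of all genes 3.51% were called (2.23% lower and 1.28% higher). The STAT3 difference between the groups, -0.26, was not called (limma adjusted p = 0.998). STAT3 stood at -0.46, -0.31, -0.49 and -0.80, with a mean of -0.65 with inhibitor (limma adjusted p = 0.0483), and was not called without the 24 h array (-0.49, 0.17), without either array of doxycycline alone (0.12) or after median centring (0.0529), scaling (-0.51, 0.0891) or averaging by the median (0.0504). Without inhibitor none of the 32 was called, and the largest means were those of STAT3 (-0.38), PIAS1, a SUMO ligase that restrains STAT factors (-0.29), and SOCS6 (-0.26).

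Of 42 listed genes of the interleukin system under other names, 23 had values on all 4 arrays and none passed in any comparison. Their median was 0.06 without and 0.06 with inhibitor. The largest means with inhibitor were those of OSMR, the oncostatin M receptor (0.62), CSF1R, the receptor for the macrophage growth factor (0.61), and TNF (-0.59). CXCL8, formerly named IL8, stayed between -0.08 and 0.10, and EBI3, the partner chain of IL27, stood at -0.10, 0.09, -0.72 and -0.04.

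The 9 members without a value on all 4 arrays were IL12B, IL12RB2, IL17C, IL1RL1, IL22RA1, IL2RA, IL36G, IL36RN and IL4. IL36G had no value on any array. IL17C (1.06), IL12RB2 and IL22RA1 were measured on the 2-day array alone. IL36RN stood at -0.07, 1.13 and, on the 3 h inhibitor array, 0.69, with different probes behind each of the last pair of values. Of the 160 probes, 45% were empty on at least 1 array, beside 33.2% of the 10169 probes with 1 gene. Why cells are empty was not given in the sources used here.

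RefSeq promoters were found for 44 of the 51 genes, with 68 start sites. A match to the NF-kB consensus (10 bases, either strand, overlapping matches counted once per promoter) lay in the 250 bases before 13 of the 68 starts (19.1%), beside 9.96% of all 35116 promoters. A match to TTCNNNGAA, the motif of STAT factors, lay before 5 (7.4%, beside 6.57%). Of tested members, 11 had an NF-kB match at 1 or more starts and 9 of these had a mean above 0 with inhibitor (median 0.13). Among the 25 with a promoter and no match, 15 did (median 0.08). Of all genes, 50.3% had a mean above 0 with inhibitor. The 11 include genes with probes on both sides of 0, such as IL6 and IL4R. The counts and medians are descriptions of letters beside ratios.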

How the data were processed

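The authors deposited a log ratio for every probe of an array, treated here as log2. For these deposited log2 ratios, the base, direction, background correction, normalization and spot filter were not given in the sources used here. The values ran from -5.61 to 7.49, and array medians of -0.007 to 0 show that they appear centred. No scanner signals were used, so signal over background is unknown, and having 4 arrays limits the precision.

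The platform annotation names 1 gene for 10169 of 15246 probes, several for 4 and none for 5073. Gene identifiers of 10128 probes matched the RefSeq table (GRCh38.p14), and all 51 member symbols were current. Gene values were means, per array, over the probes with a value. One limma 3.58.1 model (lmFit, eBayes, R 4.3.3) with a mean per group of 2 arrays was fitted on 3675 genes, with 2 residual and 4.95 prior degrees of freedom, and p-values were adjusted over all of them. The fit was tested on simulated data. IL36RN was classed as an antagonist, although the symbol rule for roles would have made it a receptor.

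Genes named with values on every array are those called, those beyond 1.5-fold on both arrays of a group, the 5 largest and 5 smallest means per group, the 5 largest absolute differences, and IL6, IL10, IL23A, IL21R and IL2RG. Others are named as partners of these, or after their values were seen. The members, lists and tests were chosen with earlier results of these data known. Alternatives were median centring, scaling to equal spread, complete probes alone, the median over probes, genes measured on 1 or more arrays of each group, a block for the day, arrays left out in turn, single probes, an adjusted p under 0.10 and a robust prior.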

Additional observations from a re-analysis of the deposited data

Results flagged for a closer look

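Some members lay on opposite sides of 0 in both arrays of one kind and both of the other. Between inhibitor groups this held for IL13RA1 (with minus without inhibitor 0.30), IL6ST (0.19), IL21R (-0.22) and IL2RB (-0.36), and limma called none of these differences (adjusted p = 0.998 for each). For IL6ST it did not hold on the 4 probes measured throughout, which stood at 0.01 to 0.12 on the 2-day array. The average there was below 0 through probes at -0.58 and -0.74 that had no value on the 24 h inhibitor array. Between days it held for IL12A (3 minus 2 days 0.54), IL1B (0.49), IL18RAP (0.48), IL3RA (0.21) and IL10RA (-0.31). The IL18RAP probes disagreed, at -0.001, 1.72 and 0.56 on the 24 h inhibitor array, and the first was at -0.13 on the 3-day array. An IL12A probe at -0.21 on the 3-day array and an IL10RA probe at 0.15 on the 24 h inhibitor array also went against the pattern. The differences between days were not tested, and the values of IL1B rest on different probes on different arrays. The 2-day value of IL3RA took in a probe at -0.40 that had no value on any other array. Its probes measured throughout stood at 0.14 and -0.03 on the 2-day array, so the pattern of IL3RA depends on that probe.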

How the results depend on the processing

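The count of called members without inhibitor, 0 of 42, was 1 (IL2RG) after scaling, 2 of 40 (IL17RA and IL2RG) on single probes and 0 to 1 with each array left out. With inhibitor the count of 2 was 1 (IL23A) after median centring and after scaling, 13 with the day as a block, 11 on single probes, 7 at an adjusted p under 0.10 (14.6% of all genes) and 0 to 12 with each array left out. It was 12 without the 3 h inhibitor array, when 881 genes (24%) were called, 1 without the 24 h array, and 0 without either array of doxycycline alone, when 11 genes (0.299%) were. An array left alone in its group is assumed there to vary like the other group. The difference, 0 of 42, was 0 to 2 with each array left out: IL23A and IL5RA without the 3 h and IL23A without the 24 h array. The other alternatives left each count as it was. With an array left out, the mean turned sign for 5 (without the 2-day array) and 11 (without the 3-day array) of 42 members without inhibitor, for 6 with inhibitor without either inhibitor array, and the difference for 6 to 10. IL15 without inhibitor and IL18RAP and IL6R with it were among them. Elsewhere at most 3 means per group turned, and at most 7 differences (after scaling). Among the genes followed singly, without inhibitor, IL10 (-0.32 to 0.21), IL23A (-0.094 to 0.34) and IL6 (-0.17 to 0.057) with each array left out; with inhibitor, IL6 with the median over probes (0.25). The difference of IL10 turned after scaling (0.0824), with probes measured on all 4 arrays (0.018) and over arrays left out (-0.33 to 0.20), and that of IL6 after scaling (0.0414), with the median over probes (0.29) and over arrays left out (-0.15 to 0.0768). The labels give no replicate numbers, so the pairing was by doxycycline day, 1 array of each group a day. With this block the difference of IL23A had an adjusted p of 0.255 in limma, and 0 differences of members were called. The number of arrays limits the precision: the median SE of a difference was 0.18.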
